A study of Mus musculus with 16 samples.

Results

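The mitochondrial ribosomal protein genes were taken as every protein coding gene whose symbol is Mrps or Mrpl followed by a number and at most 1 letter. The rule used names only, and it found 78 of the 17074 genes in the table of normalized counts, which were all 78 such genes of the mouse annotation. Of these, 29 carry an Mrps symbol and 49 an Mrpl symbol. Because some symbols no longer match the place of the protein, the genes were also grouped by role: 26 encode proteins of the small subunit and 51 of the large subunit, with Mrps18a and Mrps30 counted in the large subunit. Mrps36, now known as a component of the 2-oxoglutarate dehydrogenase complex, was kept among the 78 genes but in neither subunit.

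The mitochondrial ribosome translates only the messenger RNAs encoded by mitochondrial DNA, all of which specify core subunits of respiratory chain complexes and ATP synthase. Its ribosomal RNAs come from mitochondrial DNA, whereas every one of its proteins is encoded in the nucleus, made in the cytosol and imported. Many of these proteins descend from those of the bacterial ribosome, and the others have no bacterial counterpart and were added during the evolution of mitochondria. In neurons, which depend on oxidative phosphorylation, inherited defects of these proteins in humans cause encephalopathies among other diseases.

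The study asked how loss of acyl-CoA synthetase 6 (ACSL6), an enzyme that activates docosahexaenoic acid for brain phospholipids, changes the cerebellum during aging. RNA-Seq was performed on flash-frozen cerebellum of female C57BL/6 mice in 4 groups of 4 libraries: young control and young Acsl6-/- mice of 2 months, and aged control and aged Acsl6-/- mice of 18 months, the aged mice having aged naturally. All groups received a chow free of DHA. The Acsl6-/- mice came from Acsl6 flox/flox animals bred to CMV-Cre, so the deletion was germline and global, and the controls are labelled WT, with no allele or Cre named for them. The labels do not say that each library came from its own animal, so p-values measure only the spread between these libraries, which may be technical.

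The deposited values are counts that the authors divided by 1 size factor per library, here called normalized counts, and the whole reads behind them came to between 16953548 and 27569428 per library. Acsl6 itself had 5839 to 6973 normalized counts in the 8 control libraries and 2101 to 2336 in the 8 Acsl6-/- libraries, which did not overlap. Markers of granule neurons, the main cerebellar neuron, were abundant in every library, with 62976 to 92428 summed counts over 5 genes. Choroid plexus RNA varied between libraries: Ttr, its main transcript, was at most 435 normalized counts in 11 libraries and exceeded 5000 in aged Acsl6-/- 1, in both young control 1 and young control 4, and in aged control 3 and 4. In aged control 3, the noncoding RNA Gm42418 reached 686717 normalized counts against at most 41707 in any other library, and aged control 3 and 4 also differed from the other 14 in that their smallest nonzero value was more than 1 read.

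RefSeq promoter windows, from 250 bases before to 50 bases after a transcription start, were found for 69 of the 78 genes, and 9 were without an entry (Mrpl4, Mrpl13, Mrpl15, Mrpl19, Mrpl38, Mrpl54, Mrps28, Mrps34 and Mrps35). The windows were searched on both strands for 5 exact motifs: CCGGAAG for the ETS family that includes the GABP (NRF-2) factor, GCATGCG for NRF1, ATGGCGG for YY1, the CCAAT box and TATAAA. Matches of different motifs can share at most 2 bases at their ends, and a gene was counted when any of its windows held the letters. The ETS motif lay in 26 of the 69 windows (37.7%), compared with 9.93% of all 27025 genes with an entry and 12.9% of the 17492 coding genes. NRF1 letters were in 8 windows (11.6% against 4.96% of coding genes) and YY1 letters in 13 (18.8% against 6.05%). CCAAT lay in 39.1% of the windows and 42.3% of coding genes, and TATAAA in 7.25% and 14.8%. By subunit, 10 of 23 small subunit windows and 16 of 45 large subunit windows held the ETS letters. Such matches describe the sequence and show no binding.

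The 6 windows printed here are a selection from the genes called with age, 5 of them lower in at least 1 genotype and Mrps6 higher in control mice. Of all 15 lower genes with a window, 8 held the ETS letters. Mrpl2, Mrps5 and Mrpl41, which are among the 15, held none. Motif matches on either strand are in capitals and all other bases in lower case, each sequence running 5′ to 3′ on the strand of its gene (RefSeq, build GRCm38.p6). Mrps26 is at chr2:130563507-130563806, plus strand, and with the first transcribed base counted as 1 it holds the ETS letters at -14 and CCAAT at -85, both on the other strand. Mrpl27 (chr11:94653541-94653840, plus strand) holds the ETS letters at -55 and the YY1 letters at 12, and Mrpl34 (chr8:71464676-71464975, plus strand) holds the ETS letters at -37. Mrpl43 (chr19:45006393-45006692, minus strand) has the ETS letters at both -56 and -12. Mrpl37 (chr4:107066817-107067116, minus strand) has the YY1 letters at 30 and CCAAT at -112 and -54, the latter on the other strand. In Mrps6 (chr16:92058086-92058385, plus strand) none of the 5 motifs occurred.
Mrps26: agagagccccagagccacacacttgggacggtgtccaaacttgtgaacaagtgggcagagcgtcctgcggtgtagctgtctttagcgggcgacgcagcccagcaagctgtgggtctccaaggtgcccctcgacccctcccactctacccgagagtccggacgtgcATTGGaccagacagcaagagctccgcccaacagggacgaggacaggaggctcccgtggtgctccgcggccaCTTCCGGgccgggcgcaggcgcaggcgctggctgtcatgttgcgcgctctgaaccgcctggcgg
Mrpl27: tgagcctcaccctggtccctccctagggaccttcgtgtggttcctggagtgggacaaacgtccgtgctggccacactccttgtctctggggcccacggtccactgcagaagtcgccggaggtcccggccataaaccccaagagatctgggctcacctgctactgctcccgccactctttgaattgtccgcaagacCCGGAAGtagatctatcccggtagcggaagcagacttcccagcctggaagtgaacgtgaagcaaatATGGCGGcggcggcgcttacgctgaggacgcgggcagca
Mrpl34: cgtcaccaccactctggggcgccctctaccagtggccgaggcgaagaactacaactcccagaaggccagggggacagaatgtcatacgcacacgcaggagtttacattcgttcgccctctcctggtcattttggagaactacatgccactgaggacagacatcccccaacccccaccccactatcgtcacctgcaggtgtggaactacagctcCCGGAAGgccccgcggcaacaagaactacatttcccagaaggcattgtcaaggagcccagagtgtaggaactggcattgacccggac
Mrpl43: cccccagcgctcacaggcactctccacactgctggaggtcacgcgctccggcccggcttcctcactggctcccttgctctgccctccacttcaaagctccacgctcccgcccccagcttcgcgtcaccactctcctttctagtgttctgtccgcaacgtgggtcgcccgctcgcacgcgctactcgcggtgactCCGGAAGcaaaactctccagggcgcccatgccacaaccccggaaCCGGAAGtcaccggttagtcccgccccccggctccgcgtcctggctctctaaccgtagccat
Mrpl37: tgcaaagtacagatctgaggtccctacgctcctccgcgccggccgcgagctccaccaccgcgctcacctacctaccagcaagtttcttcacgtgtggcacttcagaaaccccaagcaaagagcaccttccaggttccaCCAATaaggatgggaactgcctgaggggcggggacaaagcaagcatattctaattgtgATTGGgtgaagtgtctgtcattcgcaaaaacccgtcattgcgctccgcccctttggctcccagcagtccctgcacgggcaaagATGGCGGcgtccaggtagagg
Mrps6: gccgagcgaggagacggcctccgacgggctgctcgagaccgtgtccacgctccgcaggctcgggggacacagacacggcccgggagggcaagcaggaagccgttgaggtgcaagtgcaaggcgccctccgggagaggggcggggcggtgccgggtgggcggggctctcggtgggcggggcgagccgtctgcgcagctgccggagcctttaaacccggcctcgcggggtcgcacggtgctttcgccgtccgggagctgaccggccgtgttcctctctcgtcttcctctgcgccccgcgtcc

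Every one of the 78 genes passed the minimum mean of 10 normalized counts, so none had to be high in a particular group to be tested. Per kilobase of annotated transcript, which allows genes to be compared, their mean levels ran from 46.0 to 853 normalized counts, an 18.5-fold range around a median of 314. The median was 292 per kb over the small subunit and 316 per kb over the large subunit, compared with 140.0 per kb over all genes and 2159.6 per kb over 77 cytosolic ribosomal protein genes. The most abundant were Mrpl41 at 853, Mrpl42 at 831, Mrps21 at 830.1, Mrpl37 at 707 and Mrpl4 at 704 normalized counts per kb. The first 3 have short annotated transcripts of 488 to 776 bases, and Mrpl4 encodes a large subunit protein whose bacterial counterpart lines the peptide exit tunnel. At the other end stood Mrpl53 at 46.0, Mrps16 at 69.7, Mrpl17 at 73.8, Mrps25 at 76.7 and Mrpl32 at 84.9 per kb. This order depends on the annotated transcript length, which was 7300 bases for Mrpl17 and 6073 for Mrps25. In normalized counts, the 4 least variable genes of the 78 across all 16 libraries had an SD of 3.3% to 4.1% of their mean (Mrpl18, Mrps10, Mrpl38 and Mrps11), and Mrpl53 varied most, at 28.2%.

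**Figure D1:**
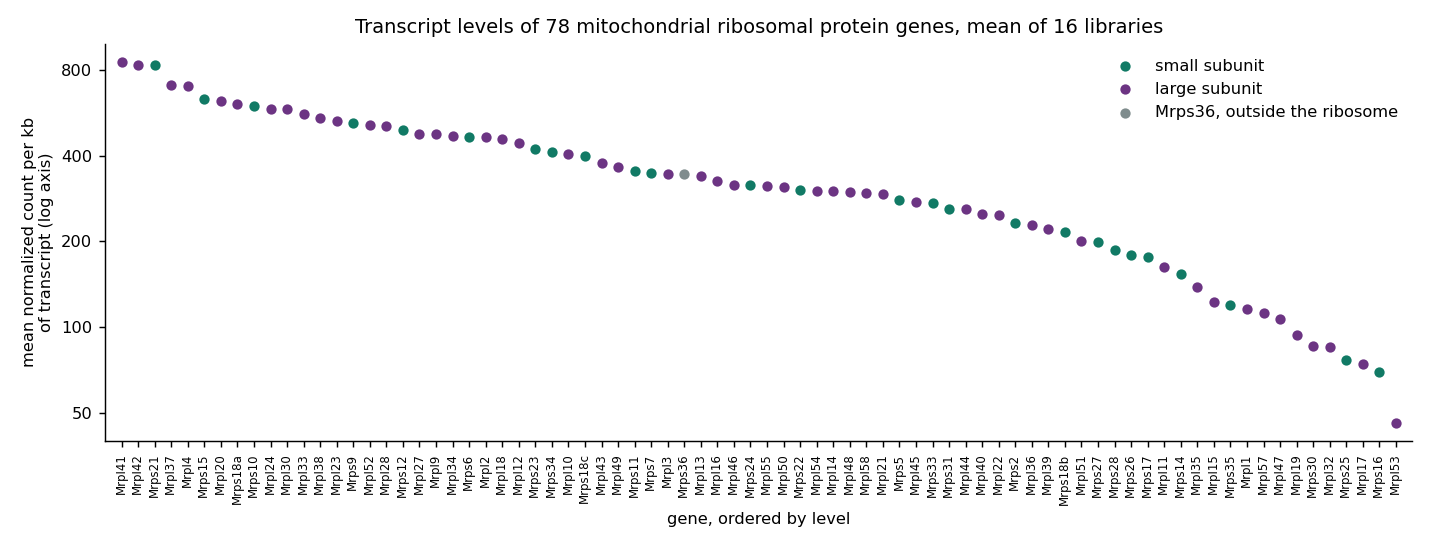
Mean normalized count per kb of transcript over 16 libraries (log axis) for the 78 genes in falling order, coloured by subunit. Mrpl41, at 853 per kb, leads and Mrpl53, at 46.0, is lowest, with genes of both subunits spread along the whole range.

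Exons of 33 of the 78 genes overlap those of another gene, in 9 of them over at least 20% of exon bases, and the sources used here do not say whether counting used strand. Reads from such stretches cannot be told apart without strand, nor with it where both genes lie on the same strand. Uncertain in that respect are Mrps34 (63.4% shared with the opposite gene Mapk8ip3 and 37.0% with Nme3 on the same strand), Mrps25 (69.8% with Nr2c2), Mrpl43 (33.4% with Twnk), Mrpl53 (88.0% with Gm42688, on the same strand), Mrpl19, Mrps18b, Mrpl24, Mrps27 and Mrps18c. In the annotation, 5 pseudogenes are named after 3 members (Mrpl23, Mrpl48 and Mrps36), none of which is in the table, and the authors counted only reads assigned to 1 gene.

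Age in control mice was examined first, as 18 months against 2 months. With limma and Benjamini-Hochberg adjustment over 17042 genes, 12 of the 78 genes fell (15.4%, against 16% of all genes tested) and 3 rose (3.85%, against 15.3%), at an adjusted p under 0.05. The lower genes thus made up about the share found among all genes. The median log2 fold change over the 78 was -0.04, with 48 below 0, while the median over all genes was 0.01. In 13 genes, called or not, all aged values lay below the young ones (16.7%, against 15.5% of all genes).

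Of the 12 genes that fell, 9 belong to the large subunit, which holds 51 of the 78 genes. Mrpl37 (ENSMUSG00000028622, chr4:107055874-107066868, GRCm38), a large subunit protein specific to mitochondria, had 1145, 1081, 1168 and 1179.9 normalized counts in young control libraries and 956, 956, 951 and 921 in aged control libraries. All 4 aged values lay below all 4 young ones, and the log2 fold change was -0.27 ± 0.05 (SE), with an adjusted p of 6.3e-04. Mrpl4 had 942, 952, 974 and 998 in young and 841, 851, 828 and 846 in aged controls, again without overlap, a log2 fold change of -0.20 ± 0.04 (SE) (adjusted p = 0.0013). Mrpl3, whose bacterial counterpart reaches toward the peptidyl transferase center, went from 1474, 1409, 1441 and 1459 to 1338, 1318, 1301 and 1189 (log2 fold change -0.17 ± 0.05 (SE), adjusted p = 0.014). The lowest value of Mrpl3 was in aged control 4, and without that library its adjusted p was 0.059. Mrpl2, another protein of that center, had 526, 456, 476 and 550.5 in young and 418, 440.5, 440.0 and 429 in aged controls, and Mrpl27, which in bacteria extends into it, had 413, 372, 386 and 448 and 355, 321, 355 and 342. For both genes the groups did not overlap, with log2 fold changes of -0.21 ± 0.07 (SE) and -0.24 ± 0.07 (SE) and adjusted p of 0.021 and 0.01. The call of Mrpl2 was lost without young control 4, at an adjusted p of 0.074.

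Mrpl43 and Mrpl54, both without a bacterial counterpart, fell as well. Mrpl43 had 563, 573, 579 and 566 normalized counts in young and 532, 506, 497 and 457 in aged controls (log2 fold change -0.20 ± 0.05 (SE), adjusted p = 0.0095), whereas Twnk, its overlapping neighbor, had a log2 fold change of 0.03 ± 0.08 (SE). Mrpl54 had 221, 207, 201 and 209 in young and 165, 192, 183 and 156 in aged controls (log2 fold change -0.27 ± 0.09 (SE), adjusted p = 0.027, 0.092 without aged control 4). Their aged values were below every young value. Mrpl45, which binds the ribosome to the inner membrane, and Mrpl57 were also called, with log2 fold changes of -0.15 and -0.24 and overlapping groups.

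From the small subunit 3 genes fell. Mrps26 (ENSMUSG00000037740, chr2:130563742-130568695, GRCm38), a mitochondria-specific protein, had 869.5, 808, 789 and 873 normalized counts in young and 699.6, 739, 672 and 679 in aged controls, with a log2 fold change of -0.26 ± 0.06 (SE) (adjusted p = 0.0023). Mrps5, whose bacterial counterpart lies at the entrance of the messenger RNA channel, had 1348, 1274, 1320.2 and 1319.9 in young and 1179, 1213, 1156 and 1207 in aged controls, a smaller difference of -0.15 ± 0.04 (SE) (adjusted p = 0.0061). Mrps34 (ENSMUSG00000038880, chr17:24895116-24897502, GRCm38), required in humans for a stable small subunit, had 485, 395, 389 and 444 and 371, 339, 327 and 363 (log2 fold change -0.29 ± 0.08 (SE), adjusted p = 0.015). In all 3 the groups were separate, although without young control 1, the highest library, Mrps34 was no longer called (adjusted p = 0.063). Mapk8ip3, opposite to Mrps34, had a log2 fold change of -0.02 ± 0.03 (SE) in the same comparison, whereas Nme3, overlapping Mrps34 on the same strand, has no values here.

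A rise was called for 3 genes, Mrps6, Mrpl42 and Mrpl35. Mrps6, a small subunit protein whose bacterial counterpart pairs with S18 on the platform, had 319, 359, 363 and 355 normalized counts in young and 451, 457, 421 and 465 in aged controls, a log2 fold change of 0.36 ± 0.06 (SE) and the smallest adjusted p of the 78 genes, 2.2e-04. Every aged value exceeded every young one. Mrps6 (ENSMUSG00000039680, chr16:92058270-92112227, GRCm38) shares 10.4% of its exon bases with Slc5a3, a sodium-dependent inositol carrier on the same strand, which also rose in control mice, by 0.53 ± 0.09 (SE) on the log2 scale. Another same-strand gene, Gm49711, shares 19.9% of the exon bases of Mrps6 and has no values here. Mrpl42 had 477, 527, 473 and 516 in young and 651, 548, 619.9 and 563 in aged controls, and Mrpl35 had 416, 535, 523 and 439 and 574, 548, 537 and 552. The log2 fold changes were 0.25 ± 0.06 (SE) (adjusted p = 0.004) and 0.22 ± 0.08 (SE) (adjusted p = 0.035). Both were separate between ages, but Mrpl35 varied widely in young controls and had an adjusted p of 0.13 without young control 1.

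The calls in control mice depended on the libraries with high Ttr or unusual counts. Without the 5 libraries high in Ttr, which left 2 libraries in each control group, 1 gene fell (Mrpl37) and 1 rose (Mrps6), and the median log2 fold change over the 78 was 0.01. The other 11 lower genes then had log2 fold changes of -0.19 to -0.06. In 6 called genes the value moved by over 1.5 times, to -0.15 for Mrps26, -0.14 for Mrps34, -0.12 for Mrpl2, -0.10 for Mrpl3, -0.06 for Mrpl57 and 0.09 for Mrpl35. Without aged control 3 and 4 alone, 4 genes were called lower with limma and 3 each with DESeq2 and edgeR, and 2 were called higher with each tool. Over all 17042 genes, 2723 were called lower with all 16 libraries and 1423 without the 5 libraries high in Ttr. Without aged control 3 and 4 the number was 1752 with limma, 1768 with DESeq2 and 1635 with edgeR. Without young control 1, 7 of the 78 genes were called lower (2224 of all genes). Without aged control 1 or aged control 4, 8 were (2266 and 2367 of all genes). The 5 choroid plexus markers summed to 397 to 8998 normalized counts in young controls and 342 to 29199.8 in aged controls. On all 16 libraries, 0 of the 5 were called or at an unadjusted p under 0.05 in limma, DESeq2 or edgeR. Without aged control 3 and 4, DESeq2 called 1 of the 5 lower. At an unadjusted p under 0.05 there were then 3 in DESeq2, 2 in edgeR and 1 in limma. The part of choroid plexus RNA in these results was not tested.

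**Figure D2:**
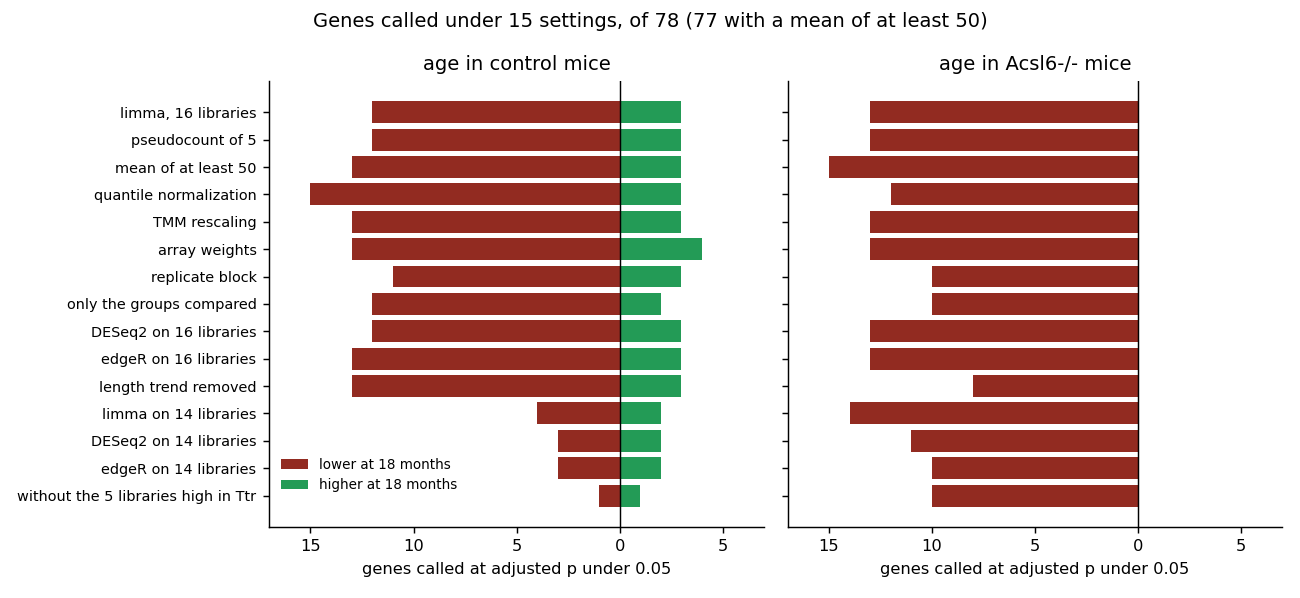
Number of genes called lower (left of 0) and higher (right of 0) with age under 15 settings, in control mice and in Acsl6-/- mice. In control mice 12 genes are called lower with all 16 libraries and 1 without the 5 libraries high in Ttr. In Acsl6-/- mice the number is between 8 and 15 under these settings, and 6 to 13 when each library is left out in turn. Of the 5 libraries high in Ttr, only aged Acsl6-/- 1 is from Acsl6-/- mice, and the settings on 14 libraries leave out control libraries only. These counts therefore do not compare the genotypes in how far their calls depend on such libraries.

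In Acsl6-/- mice, age was compared in a separate set of 8 libraries. Here 13 of the 78 genes fell (16.7%, against 11.6% of all genes) and none rose, against 11.6% of all genes. No gene rose with DESeq2 or edgeR on all 16 or on 14 libraries either, and 0 of the genes with an unadjusted p under 0.05 were higher. The median log2 fold change was -0.06, with 57 of the 78 genes below 0, compared with a median of 0.00 and 50% below 0 over all genes. With a trend with transcript length removed from each library, 8 of the 78 genes fell and 48 were below 0, while 1965 of all 17042 genes fell. In 15 genes all 4 aged values lay below all 4 young ones, against 12.2% of all genes.

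Mrps34 showed the largest fold among the called genes, with 453, 438, 414 and 375 normalized counts in young and 345, 276, 319 and 317 in aged Acsl6-/- libraries. The groups did not overlap, and the log2 fold change of -0.42 ± 0.08 (SE) had an adjusted p of 0.0016, while Mapk8ip3 on the opposite strand had 0.02 ± 0.03 (SE). Mrpl34 (ENSMUSG00000034880, chr8:71464959-71465747, GRCm38), a small basic protein of the large subunit conserved from bacteria, had 328, 304, 295 and 275 in young and 236, 193, 252 and 241 in aged Acsl6-/- libraries. That difference, -0.39 ± 0.09 (SE) on the log2 scale (adjusted p = 0.0038), was separate in every library and in control mice Mrpl34 had a log2 fold change of -0.06 ± 0.09 (SE) with an adjusted p of 0.63. Mrpl4 fell from 996, 943, 937 and 989.8 to 824, 840.2, 845 and 899 (log2 fold change -0.18 ± 0.04 (SE), adjusted p = 0.0034), close to its difference in controls.

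Mrps26 and Mrpl37 also fell in this genotype. Mrps26 had 782, 839, 853 and 796 normalized counts in young and 746, 629, 733 and 698 in aged Acsl6-/- libraries, and Mrpl37 had 1155, 1179.6, 1144 and 1105 and 1071, 910.5, 1072 and 948. The log2 fold changes were -0.22 ± 0.06 (SE) and -0.20 ± 0.05 (SE), with adjusted p of 0.0085 and 0.0087, and neither gene overlapped between ages. Mrpl41, the most abundant member per kb, had 726, 621, 762 and 781 and 538, 616, 596 and 651 (log2 fold change -0.26 ± 0.07 (SE), adjusted p = 0.0085), with young Acsl6-/- 2 inside the aged range. In control mice Mrpl41 had a log2 fold change of -0.16 and an adjusted p of 0.085.

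Mrpl54, Mrpl2, Mrpl27 and Mrps21 were the remaining genes among the 10 with the smallest p. Mrpl54 had 204, 201, 167 and 190.5 normalized counts in young and 164, 142, 159 and 152 in aged Acsl6-/- libraries, Mrpl2 had 525, 568, 498 and 514 and 489, 416, 464 and 441, and Mrpl27 had 382, 376, 368 and 362 and 344, 319, 302 and 323. Each was separate between ages, with log2 fold changes of -0.30 ± 0.09 (SE), -0.22 ± 0.07 (SE) and -0.21 ± 0.07 (SE) and adjusted p of 0.019, 0.024 and 0.027. Mrps21 had 429, 409.9, 422 and 422 in young and 405, 339.9, 344 and 345 in aged Acsl6-/- libraries (log2 fold change -0.23 ± 0.08 (SE), adjusted p = 0.03), the aged library 1 standing close to the young values. Without aged Acsl6-/- 2, often the lowest library of its group, these 4 genes and Mrps24, Mrpl48 and Mrpl16 lost their calls and 6 genes remained called: Mrps34, Mrpl4, Mrpl34, Mrps26, Mrpl41 and Mrpl37. Without young Acsl6-/- 1, 7 genes were called.

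**Figure D3:**
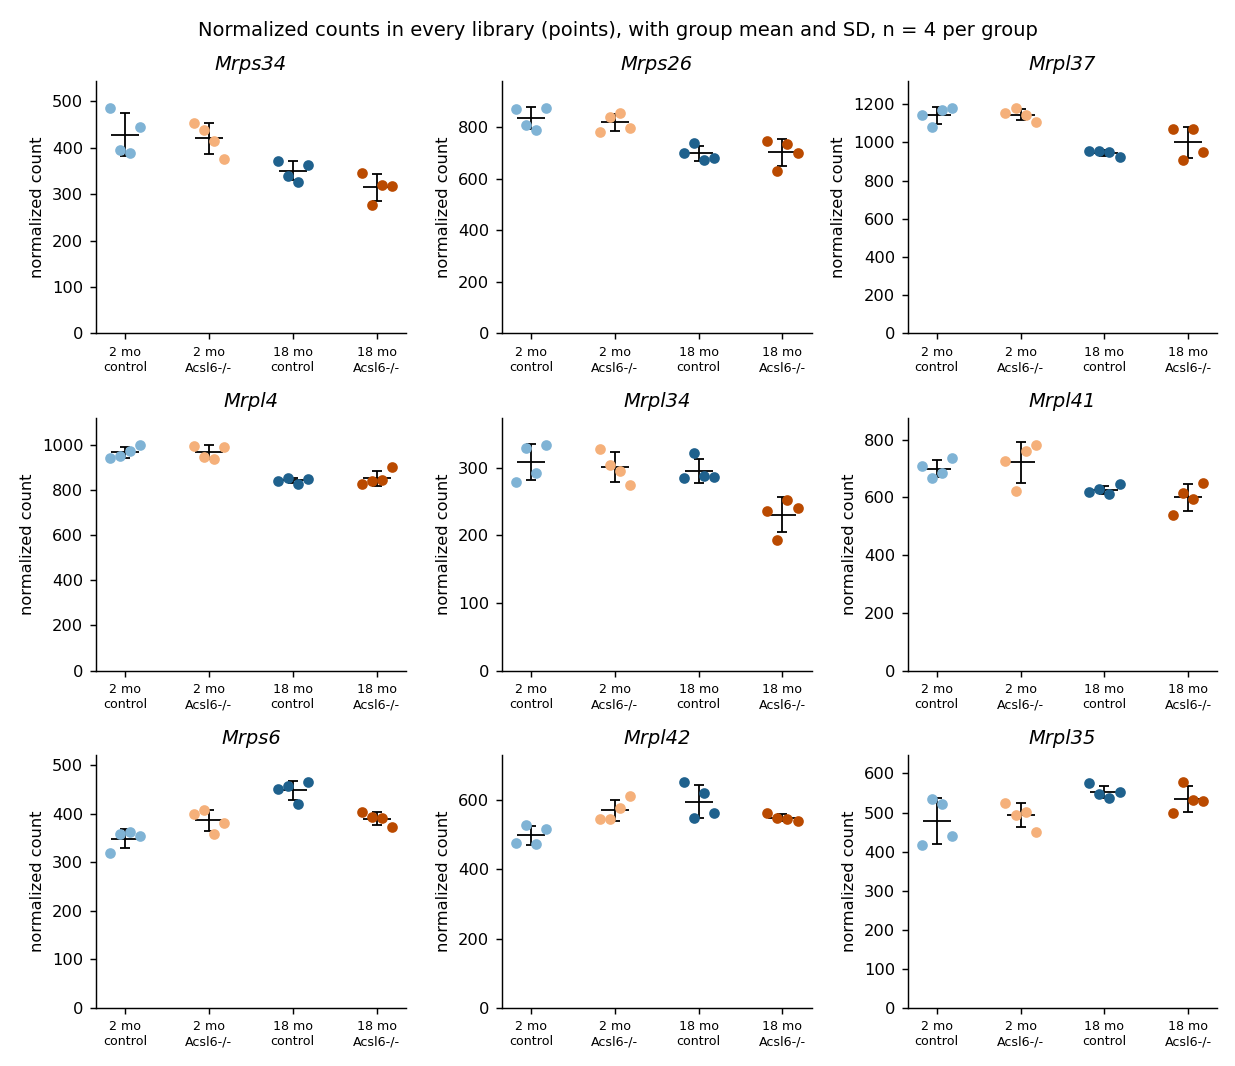
Normalized counts in each of 16 libraries (points) with mean and SD per group (n = 4) for 9 genes, each axis starting at 0. Mrps34, Mrps26, Mrpl37 and Mrpl4 are lower at 18 months in both genotypes, Mrpl34 is low in aged Acsl6-/- libraries, and Mrps6, Mrpl42 and Mrpl35 are higher in aged than in young controls.

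Markers of several cell types also changed with age in these bulk samples, in which fewer cells of a type and less RNA per cell cannot be told apart. All 5 granule neuron markers fell in both genotypes, with a sum of 81226 to 92428 in young and 62976 to 65658 in aged controls, and 85338 to 88210.2 in young and 63856 to 72632 in aged Acsl6-/- mice. All 5 microglia markers rose in both genotypes, with 687 to 882 summed counts in young and 1306 to 1529.9 in aged controls, and 849 to 1106 and 1578 to 1898 in Acsl6-/- mice. All 5 myelin genes of oligodendrocytes fell with age in Acsl6-/- mice (summed counts 94749 to 120765 in young and 67535 to 86764 in aged libraries). In control mice their sums were 84460.2 to 97817 and 66779 to 102940.3, with 0 of 5 called by limma, DESeq2 or edgeR and 2 at an unadjusted p under 0.05 in limma. The part of these cell types in the lower mitochondrial ribosomal protein transcripts was not tested.

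Across both genotypes, 7 genes fell with age in each (8.97%, compared with 8.14% of all genes): Mrps34, Mrps26, Mrpl37, Mrpl4, Mrpl54, Mrpl2 and Mrpl27. These were 58.3% of the 12 genes lower in control mice and 53.8% of the 13 lower in Acsl6-/- mice, and the comparisons share no library, only the estimate of the spread. Without the 5 libraries high in Ttr 1 gene, Mrpl37, was called lower in both genotypes. Without aged control 3 and 4 there were 4 with limma (Mrpl27, Mrpl37, Mrpl4 and Mrps26) and 3 each with DESeq2 and edgeR. Leaving out young control 1 or aged Acsl6-/- 2 gave 4, and Mrpl37, Mrpl4 and Mrps26 were among the shared genes with every single library left out. With all 16 libraries, another 5 were called lower in control mice only, 6 in Acsl6-/- mice only, 3 were called higher in control mice, and 57 of the 78 genes were called in neither. The sign agreed for 53 of 78 genes (67.9%, against 76.4% of all genes), and across the 78 genes the age differences of the 2 genotypes had a Spearman rho of 0.54 and a Pearson r of 0.57, against a rho of 0.66 over all genes, as a description over genes that share libraries.

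**Figure D4:**
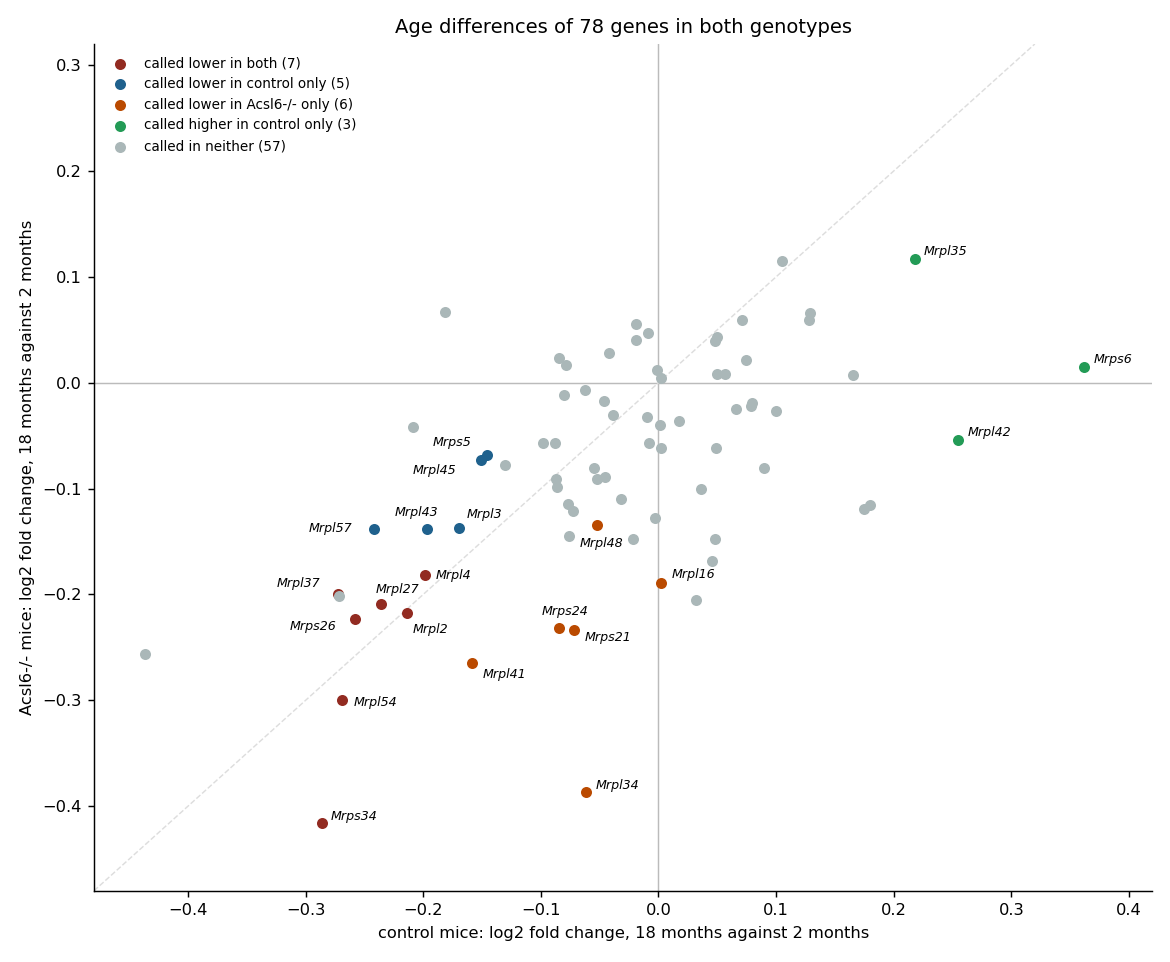
Log2 fold change with age in control mice (horizontal axis) against Acsl6-/- mice (vertical axis) for 78 genes, coloured by call, with the dashed line marking equal change. The 7 genes called lower in both lie near the line at the lower left, Mrpl34 lies far below it, and Mrps6 and Mrpl42 lie to the right at 0.01 and -0.05 on the vertical axis.

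Whether age acted differently in the genotypes was tested by the interaction of genotype and age, and 0 of the 78 genes passed the adjusted threshold with limma, DESeq2 or edgeR (background 0.0176% of all genes). At an unadjusted p under 0.05 there were 4 genes, all with a more negative age difference in Acsl6-/- mice, against 5.23% of all genes in that direction. Without the 5 libraries high in Ttr, 7 genes in place of 4 had such a p in either direction, beside 1790 in place of 1707 of all genes. Of the 78 genes 0 were called, and their median interaction was -0.06 in place of -0.04. Mrps6 had the smallest p, with an interaction of -0.35 ± 0.09 (SE) (adjusted p = 0.18). Its values in Acsl6-/- mice were 399.8, 408, 358 and 380.0 at 2 months and 403, 393, 391 and 372 at 18 months, overlapping, in contrast to the rise in controls. Slc5a3, its neighbor, rose in Acsl6-/- mice too, by 0.50 ± 0.09 (SE) on the log2 scale, with an interaction of -0.03 ± 0.12 (SE). Mrpl42 had 546, 546, 578 and 611 in young and 563, 547, 546 and 539 in aged Acsl6-/- libraries, an interaction of -0.31 ± 0.09 (SE) (adjusted p = 0.21).

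Mrps33, a mitochondria-specific small subunit protein, had 309.6, 266, 261 and 288 normalized counts in young and 318, 292, 334 and 326 in aged controls. In Acsl6-/- mice the values were 329, 298, 309.8 and 326 and 288, 293, 275 and 307, and the interaction was -0.29 ± 0.10 (SE) (adjusted p = 0.32). For Mrpl34 it was -0.33 ± 0.13 (SE) (adjusted p = 0.4), so a difference between genotypes in its response to age was not shown. Mrpl16 and Mrps21, called with age in Acsl6-/- mice only, had interactions of -0.19 ± 0.09 (SE) and -0.16 ± 0.11 (SE). Mrpl16 had 417, 404, 418 and 366 in young and 329.8, 339, 376 and 363 in aged Acsl6-/- libraries and 371, 358, 396 and 392 in young and 406, 394, 349 and 371 in aged controls, which overlapped in both genotypes. The unadjusted 95% interval of an interaction extended 0.20 on the log2 scale to either side for the median gene. Smaller differences were thus mostly not detectable with 4 libraries per group. After adjustment over all genes, larger ones such as the -0.33 of Mrpl34 were not called either.

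Genotype was compared within each age next. At 2 months 0 of the 78 genes were called with limma (background 0.211%), DESeq2 or edgeR, and 7 had an unadjusted p under 0.05 (3 lower and 4 higher), compared with 12.1% of all genes. The median log2 fold change was -0.01, and the 95% interval of a single gene extended 0.14 to either side for the median gene. Mrpl42 had the smallest p, with the young control values given above, all below the young Acsl6-/- ones (0.19 ± 0.06 (SE), adjusted p = 0.2, interval 0.07 to 0.32). Mrpl50, a mitochondria-specific large subunit protein, had 625, 653, 610.4 and 510.1 in young controls and 615, 687, 715 and 682 in young Acsl6-/- libraries, which overlapped (0.17 ± 0.07 (SE), adjusted p = 0.3). Young control 4 was the lowest, and without it the difference of Mrpl50 was 0.10. Mrpl30 had 609.9, 595, 605 and 587 and 539, 572, 538 and 532, separate but small in difference (-0.14 ± 0.05 (SE), adjusted p = 0.3).

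At 18 months 0 of the 78 genes were called with limma (background 0.241%) and 8 had an unadjusted p under 0.05, every one lower in Acsl6-/- mice (10.3%, against 4.54% of all genes). By sign, 55 of the 78 genes (70.5%) were lower in aged Acsl6-/- than in aged control mice, against 48.8% of all genes, with a median log2 fold change of -0.04. With 1 library left out, 5 to 8 genes had such a p, 51 to 60 were below 0 and the median was -0.06 to -0.03. Without the 5 libraries high in Ttr the numbers were 10 and 60, with a median of -0.07, and the limma median without aged control 3 and 4 was also -0.07. Over all 17042 genes, 1560 had an unadjusted p under 0.05 in either direction with all 16 libraries. That number was 1898 without the 5 libraries high in Ttr. Mrpl34 had 284, 322, 289 and 286 normalized counts in aged controls and 236, 193, 252 and 241 in aged Acsl6-/- libraries, without overlap. Its log2 fold change was -0.36 ± 0.09 (SE) (interval -0.55 to -0.18) with an adjusted p of 0.096 in limma, and it was the 1 gene that DESeq2 called on 16 libraries. edgeR called 0 of the 78.

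Mrps6 and Mrpl36 followed. Mrps6 was lower in every aged Acsl6-/- library than in every aged control library (-0.20 ± 0.06 (SE), adjusted p = 0.24). Mrpl36, the smallest conserved protein of the large subunit in bacteria, had 239.8, 258, 248 and 195 in aged controls and 224, 194, 182 and 172 in aged Acsl6-/- libraries, and aged control 4 fell inside the Acsl6-/- range (-0.28 ± 0.10 (SE), adjusted p = 0.38). Without the libraries high in Ttr, aged control 4 among them, the difference of Mrpl36 was -0.45. Transcript length moved with this comparison: the 78 genes had a median length of 1302 bases against 2848 over all genes, their log2 fold changes had a Spearman rho of 0.42 with length (0.36 for age in Acsl6-/- mice and 0.10 for age in controls), and genes with transcripts of up to 1760 bases had a median of -0.02. With the length trend removed from each library, the median over the 78 genes at 18 months was -0.02, 48 were below 0 and 5 had an unadjusted p under 0.05 (4 with a replicate block as well). With age in Acsl6-/- mice, 8 in place of 13 of the 78 genes then fell and 48 in place of 57 were below 0. Over all 17042 genes, 1965 in place of 1976 fell in that comparison.

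The subunits were then set side by side. With age in control mice, 3 of 26 small subunit genes fell and 1 rose (median log2 fold change -0.06), and of 51 large subunit genes 9 fell and 2 rose (median -0.02). Of all genes tested, 16% fell and 15.3% rose. With 1 library left out, the medians ranged from -0.06 to -0.03 for the small and from -0.04 to -0.01 for the large subunit, so the ranges met, and both were nearest to 0 without aged control 4. Without the 5 libraries high in Ttr, 0 small and 1 large subunit gene fell, with medians of -0.01 and 0.01. In Acsl6-/- mice 4 of the 26 small subunit genes (Mrps34, Mrps26, Mrps21 and Mrps24) and 9 of the 51 large subunit genes fell, with medians of -0.04 and -0.08, beside 11.6% of all genes. Counted by symbol, 4 of 29 Mrps and 9 of 49 Mrpl genes fell in Acsl6-/- mice. The difference between the subunits was not tested.

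By origin, 5 of 48 genes with a bacterial counterpart and 7 of 29 mitochondria-specific genes fell in control mice, and 7 and 6 fell in Acsl6-/- mice, while 16% of all genes fell in control and 11.6% in Acsl6-/- mice. Without the 5 libraries high in Ttr the counts in control mice were 0 and 1. The difference between these classes was not tested. The median age difference of the 9 mitochondria-specific small subunit genes was 0.08 in control and -0.02 in Acsl6-/- mice, although Mrps26 and Mrps34 were among them and fell in both. The 31 large subunit genes with a bacterial counterpart had medians of -0.00 and -0.06.

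The sum of all 78 genes was 39115 to 40116 normalized counts in young control, 39197 to 39593 in young Acsl6-/-, 37584 to 39260.1 in aged control and 36972 to 37819.5 in aged Acsl6-/- libraries. The young and aged ranges of this sum overlapped in control mice and were separate in Acsl6-/- mice. As a share of the total normalized counts of each library, they overlapped in Acsl6-/- mice too. That share was 0.187% to 0.193% in young and 0.183% to 0.189% in aged Acsl6-/- libraries, and the shares of each subunit also overlapped. The small subunit summed to 12552 to 12873 in young and 11963 to 12389 in aged Acsl6-/- libraries, and the large subunit to 26365 to 26591 and 24782 to 25236. No test was made on these sums.

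**Figure D5:**
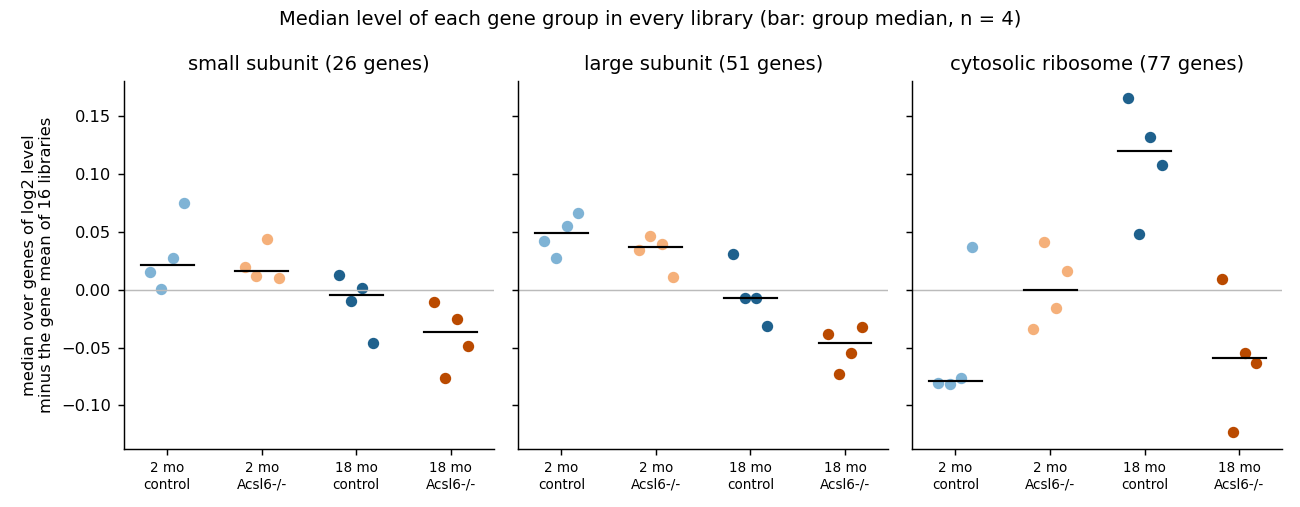
Median over genes of the log2 level relative to each gene's mean over 16 libraries, for small subunit, large subunit and cytosolic ribosomal protein genes, with 1 point per library and a bar at the group median (n = 4). Both mitochondrial subunits are lowest in aged Acsl6-/- libraries, at group medians of -0.04 and -0.05, while the cytosolic genes are highest in aged controls, at 0.12.

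Cytosolic ribosomal protein genes were read beside them, where 16% of all genes fell and 15.3% rose with age in control mice, and 11.6% each way in Acsl6-/- mice. Of 77, 47 rose and 0 fell with age in control mice (34 and 0 without the 5 libraries high in Ttr, median log2 fold change 0.17, with 0 lower also in DESeq2, in edgeR and at an unadjusted p under 0.05), and 1 rose and 12 fell in Acsl6-/- mice (median -0.04, with 19 lower without those libraries), beside 0 and 13 of the 78 mitochondrial genes. At 18 months 10 of the 77 were lower in Acsl6-/- than in control mice with limma and with edgeR and 26 with DESeq2, with a median of -0.16, and 4 with limma without the libraries high in Ttr. Over all 17042 genes, 27 were called lower there with limma, 29 with edgeR and 93 with DESeq2. With the length trend removed, 2 of the 77 were lower at 18 months (13 of all genes), with a median of -0.10. With age in Acsl6-/- mice 7 of the 77 then fell and 4 rose, with a median of -0.005. In the interaction, DESeq2 called 17 lower (57 of all genes), and limma and edgeR called 0 with 58 at an unadjusted p under 0.05. In limma with the length trend removed there were 51. The 13 messenger RNAs of mitochondrial DNA, which are what the mitochondrial ribosome translates, showed 2 higher and 0 lower in control mice (1 lower with DESeq2 and with edgeR and at an unadjusted p under 0.05) and 1 higher and 6 lower in Acsl6-/- mice (4 lower with the length trend removed). The transcript mt-Nd3, of a complex I subunit, rose in both (0.60 ± 0.09 (SE) and 0.48 ± 0.09 (SE) on the log2 scale), and mt-Cytb, the complex III cytochrome, fell in Acsl6-/- mice (-0.26 ± 0.05 (SE)). At 18 months all 13 (12 without the libraries high in Ttr) were below 0 in Acsl6-/- against control mice, with a median of -0.17, 8 at an unadjusted p under 0.05 and 0 called with limma, 2 with DESeq2 and 1 with edgeR. With the length trend removed, 12 were below 0, with a median of -0.13 and 7 at such a p.

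Other genes of mitochondrial translation and transcription were read from lists. Of all genes, 16% fell and 15.3% rose with age in control mice, and 11.6% fell and 11.6% rose in Acsl6-/- mice. Among 30 assembly and rRNA modification genes, 6 fell and 1 rose with age in control mice, and 1 fell and 2 rose in Acsl6-/- mice. Spg7, a subunit of the inner membrane protease that processes Mrpl32, fell in both (-0.22 ± 0.04 (SE) and -0.20 ± 0.04 (SE)), while Mrpl32 itself was not called. Nsun4, the rRNA methyltransferase that takes part in joining the subunits, rose in both (0.27 ± 0.08 (SE) and 0.29 ± 0.08 (SE)). Of 15 translation factors tested, 4 fell and 0 rose in control mice (0 also with DESeq2 and edgeR, 1 at an unadjusted p under 0.05), and 2 fell and 1 rose in Acsl6-/- mice. Mtfmt, which formylates the initiator methionyl-tRNA, fell in both (-0.34 ± 0.07 (SE) and -0.29 ± 0.07 (SE)), as did Guf1 (-0.19 ± 0.05 (SE) and -0.18 ± 0.05 (SE)).

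The next lists are likewise to be read beside 16% of all genes lower and 15.3% higher in controls, and 11.6% each way in Acsl6-/- mice. Among 22 mitochondrial aminoacyl-tRNA synthetase genes, 4 fell and 1 rose in controls and 2 fell and 2 rose in Acsl6-/- mice, with Sars2, which charges serine, lower in both (-0.38 ± 0.09 (SE) and -0.24 ± 0.09 (SE)). Of 17 genes of mitochondrial transcription and its regulators, 6 fell and 2 rose in control mice, among them the coactivator Ppargc1b (-0.31 ± 0.06 (SE)) and the nuclear receptor Esrra (-0.20 ± 0.05 (SE)), which fell, and Gabpa (0.28 ± 0.07 (SE)), the DNA-binding subunit of GABP, which rose. In Acsl6-/- mice 1 gene of that list fell, Ssbp1 (-0.22 ± 0.06 (SE)), and 1 rose, Mgme1 (0.47 ± 0.08 (SE)). None of the 5 further mitochondrial ribosomal proteins with other names (Dap3, Chchd1, Aurkaip1, Ptcd3 and Gadd45gip1) was called by limma in any comparison or by DESeq2 or edgeR with age, with 1 at an unadjusted p under 0.05 for age in control and 2 in Acsl6-/- mice. Of the 18 genes lower with age in either genotype, 15 had a promoter window, of which 8 held the ETS letters, compared with 18 of the other 54. For the same 15 and 54 genes, NRF1 letters were in 0 and 8, YY1 letters in 3 and 10, CCAAT in 5 and 22 and TATAAA in 3 and 2. These differences were not tested.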

How the data were processed

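RNA was measured in cerebellum of 4 groups of 4 libraries, grouped by the genotype and age in the labels. The authors trimmed reads with Trimmomatic 0.36, aligned them with STAR 2.5.2b to the mouse genome GRCm38, counted unique exon hits per gene with featureCounts from poly(A) libraries and compared groups with DESeq2. The deposited signal is a count divided by 1 size factor per library, and a gene filter is not given in the sources used here. Dividing each library by its smallest step gave whole reads for 100% of values within 0.001. Depth was 16953548 to 27569428 recovered reads per library, although 2 aged control libraries had no value of 1 read.

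Here limma 3.58.1 (R 4.3.3) was fitted to log2(normalized count + 1) of 17042 genes with a mean of at least 10, as 1 model of the 4 groups without a block, with a variance trend, two-sided tests and Benjamini-Hochberg adjustment over all genes. A gene was called at an adjusted p under 0.05, and fold changes on this scale understate the change of low genes. The fit was tested on simulated data. DESeq2 1.42.0 and edgeR 4.0.16 were run on recovered reads as alternatives. On all 16 libraries DESeq2 called 5303 genes for age in control and 3999 in Acsl6-/- mice, and edgeR 5393 and 3969. Other alternatives were another pseudocount, minimum and scaling, array weights, a replicate block, the removal of a length trend, only the compared groups, and leaving out libraries.

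Members and lists were chosen with earlier results of these data known. Full values were given for genes called between genotypes or in the interaction, the 10 with the smallest p per direction and age comparison, the 3 with the smallest p in each comparison, the 5 highest and 5 lowest per kb, and the 5 with a differing age call and the smallest interaction p. In the other lists at most 4 genes per direction were named, by smallest p. Other markers were read as well: with age in control mice 0 of 5 Purkinje cell, 3 of 5 astrocyte and 1 of 4 endothelial markers were higher and 1 astrocyte marker lower, and in Acsl6-/- mice 1, 2 and 1 were higher and 1 astrocyte marker and 1 of 3 oligodendrocyte precursor markers lower.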

Additional observations from a re-analysis of the deposited data

Results flagged for a closer look

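In 6 of 112 sets of 4 libraries (5.36%), 1 library stood apart from the other 3 by more than the 95% critical value of Dixon's test allows, where chance gives about 1 in 20. Mrpl30 in young Acsl6-/- library 2 had 572 normalized counts against 532 to 539 in the other 3. Mrpl32 in aged control 2 had 226 normalized counts against 274 to 284. Mrpl34 in the same library had 322 normalized counts against 284 to 289, above the rest of its group. Mrpl36 in young control 2 had 236 normalized counts against 195 to 199. Mrpl37 in aged control 4 had 921 normalized counts against 951 to 956. Mrps21 in aged Acsl6-/- library 1 had 405 normalized counts against 339.9 to 345, and this library also had high Ttr, whose part in the value was not tested.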

How the results depend on the processing

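The count of 12 genes lower with age in control mice became 1 without the 5 libraries high in Ttr, 4 with limma on 14 libraries, 3 with DESeq2 and 3 with edgeR on 14 libraries, and 7 to 15 when each library was left out in turn. Over all 17042 genes the count of 2723 became 1423 without the 5 libraries high in Ttr and 1752 with limma on 14 libraries. The 3 genes higher in control mice became 1 without the libraries high in Ttr. In Acsl6-/- mice the count of 13 lower genes became 8 with the length trend removed, 8 with the length trend removed and a replicate block, and 6 to 13 with 1 library left out. Over all genes the count of 1976 became 1965 with the length trend removed, 1839 with a block as well and 1569 without aged Acsl6-/- 2. The single call between genotypes at 18 months came from DESeq2 on 16 libraries (1 gene, Mrpl34, an alternative chosen after seeing the data, as was edgeR on 16 libraries and the length trend with a block). The cause of these changes was not tested.

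A difference near 0 changed sign for 2 genes. Mrpl16 with age in control mice was -0.0216 after quantile normalization, -0.00329 with DESeq2 and -0.00182 with edgeR on 16 libraries, and -0.0300 to 0.0422 with 1 library left out. Mrps6 with age in Acsl6-/- mice was -0.00106 after quantile normalization and -0.00108 without the libraries high in Ttr, and it was -0.0210 to 0.0414 with 1 library left out.

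Same-numbered libraries did not deviate together (correlations of -0.20 to 0.21, with 4 of 24 over 0.1), so the numbers were not taken to pair them. With a replicate block 11 genes were lower and 3 higher in control mice and 10 lower in Acsl6-/- mice. Among the remaining values, 95 of single genes lost their call, 1 gained it and 24 moved, while 1493 of these and 212 counts kept their direction and side of the threshold. For the median gene the unadjusted 95% interval of a difference extended 0.14 to either side on the log2 scale. After adjustment, some differences larger than this were called and others were not. The part of depth was not tested.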
